A study of Mus musculus with 16 samples.

Results

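The genes described here encode plasma proteins that the liver makes and secretes into blood: carriers, clotting factors, inhibitors of clotting, protease inhibitors and soluble proteins of innate immunity. The list held 34 genes, chosen by name. Each gene was read from the probe set that carried its symbol alone, and where a gene had several, from the brightest by its mean over all arrays. Of the 34 genes, 32 had such a probe set, and Trf and Gc had none. The other 32 were read among 8251 genes of the array that had a probe set of 1 symbol. A filter on dim probe sets, which asked for a signal over 17.3 (the 40th percentile of all values) on at least 2 arrays, left 23 of them for testing among 6922 genes. The 9 measured genes under the filter were Ahsg, F9, Hrg, Apoh, Vtn, Itih2, Pzp, Mbl1 and Hc.

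RNA of sorted mouse thymic cells was measured on 16 Affymetrix arrays in 8 groups of 2, with 1 signal per probe set and array on a linear scale. Medullary thymic epithelial cells (mTEC) of wild-type (WT) mice were sorted for high or low surface CD80, a costimulatory protein, giving the groups WT CD80hi and WT CD80lo. The same sorts from AIRE k/o mice gave the knockout CD80hi and CD80lo groups, and knockout here means labelled so. The other groups, all from wild-type mice, were mTEC with no CD80 sort named, epithelial cells of the thymic cortex (cTEC), and the dendritic cells (tDC) and macrophages (tMPh) of the thymus. Below, unsorted and unfractionated mean only that no CD80 sort is named for a group. The sources used here give no age, strain, allele or number of mice pooled, and nothing says that the 2 samples of a group came from separate mice, so the p-values measure the spread between these samples, which may be technical. In sorted samples, fewer cells of a type and less RNA per cell cannot be told apart.

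Hepatocytes secrete most proteins of the plasma, and the genes for them are classical examples of transcription restricted to the liver. The thymic medulla is an exception: mTEC transcribe many genes that otherwise belong to single tissues, which exposes developing T cells to those antigens. Part of this transcription depends on the nuclear protein Aire, and surface CD80 increases as mTEC mature. Complete fibrinogen is assembled from the chains encoded by Fga, Fgb and Fgg, which lie next to each other in the genome, so that thymic expression of such a cluster can be followed chain by chain.

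The sequences just upstream of 6 of the genes are printed. The fibrinogen cluster (Fga, Fgb and Fgg) and the neighbours Itih1 and Itih3 are shown because the results compare them with each other, and Alb because it is the best known of the plasma protein genes and changed with both CD80 and the genotype. They are 150 bases ending at the annotated start of each gene, read 5′ to 3′ on the gene's strand, from RefSeq on build GRCm38.p6. Capitals mark the letters GTTAAT, part of the motif of the liver transcription factor HNF1, on either strand (ATTAAC is its reverse complement).
Fga (chr3:83026003-83026152, plus strand): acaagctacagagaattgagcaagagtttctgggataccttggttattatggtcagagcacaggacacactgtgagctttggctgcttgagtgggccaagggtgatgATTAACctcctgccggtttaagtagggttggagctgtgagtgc
Fgb (chr3:83049864-83050013, minus strand): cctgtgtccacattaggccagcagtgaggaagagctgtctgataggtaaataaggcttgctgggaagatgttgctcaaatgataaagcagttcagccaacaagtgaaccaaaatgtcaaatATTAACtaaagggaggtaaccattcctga
Fgg (chr3:83007574-83007723, plus strand): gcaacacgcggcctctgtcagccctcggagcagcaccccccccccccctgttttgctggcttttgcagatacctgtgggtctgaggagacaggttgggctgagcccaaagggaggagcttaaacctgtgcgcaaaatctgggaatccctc
Alb (chr5:90460720-90460869, plus strand): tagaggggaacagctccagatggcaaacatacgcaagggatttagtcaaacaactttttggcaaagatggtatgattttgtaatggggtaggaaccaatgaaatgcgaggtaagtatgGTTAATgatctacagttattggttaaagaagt
Itih1 (chr14:30943290-30943439, minus strand): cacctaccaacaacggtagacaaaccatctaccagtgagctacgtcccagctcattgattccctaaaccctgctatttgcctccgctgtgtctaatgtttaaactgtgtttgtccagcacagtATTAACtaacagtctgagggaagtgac
Itih3 (chr14:30923588-30923737, minus strand): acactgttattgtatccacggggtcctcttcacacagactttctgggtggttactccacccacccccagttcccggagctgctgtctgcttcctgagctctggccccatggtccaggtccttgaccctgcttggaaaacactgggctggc
RefSeq promoters were listed for 27 of the 34 genes, all but Ttr, Trf, Hp, Orm1, Kng1, Proc and Plg. In the 250 bases before the start, GTTAAT was found on either strand in 10 of the 27 (37.0%), against 6.52% of 27025 genes in the same table and 5.93% of its 17492 protein-coding genes. The 10 genes were Alb, Afp, Gc, Fga, Fgb, Cp, Hc, Pzp, Vtn and Itih1. In Alb the letters lay 32 to 27 bases before the start, in Fga 43 to 38, in Fgb 29 to 24 and in Itih1 27 to 22. Fgg and Itih3 did not hold these letters in the window. The letters CAAAGTC, the core of the motif of HNF4, were found in 4 of the 27 (14.8%, against 3.8% of all genes), namely Alb, Hpx, Vtn and Ahsg. The letters TATAAA were found in 3 of the 27 (11.1%, against 13%). A match describes these letters only.

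More of the plasma protein genes were over the filter value in WT CD80hi and in unsorted WT mTEC than in the other groups. On both arrays of WT CD80hi mTEC, 18 of the 32 measured genes (56.2%) exceeded 17.3, close to the 60.4% of all probe sets other than controls. In unsorted WT mTEC 16 did (50%, against 58.8%). The number was 8 (25%, against 57.8%) in WT CD80lo mTEC, 9 (28.1%, against 54.3%) in knockout CD80hi mTEC and 5 (15.6%, against 55.3%) in knockout CD80lo mTEC. It was 4 in cTEC (12.5%, against 54.3%) and 3 in both dendritic cells (9.38%, against 50%) and macrophages (9.38%, against 52.5%). The median signal of the 32 genes was 29.45 and 29.5 on the WT CD80hi arrays, near the medians of all probe sets (33.9 and 34.4), and 7.9 and 9.3 on the WT CD80lo arrays, against 31.6 and 32.7 for all.

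**Figure D1:**
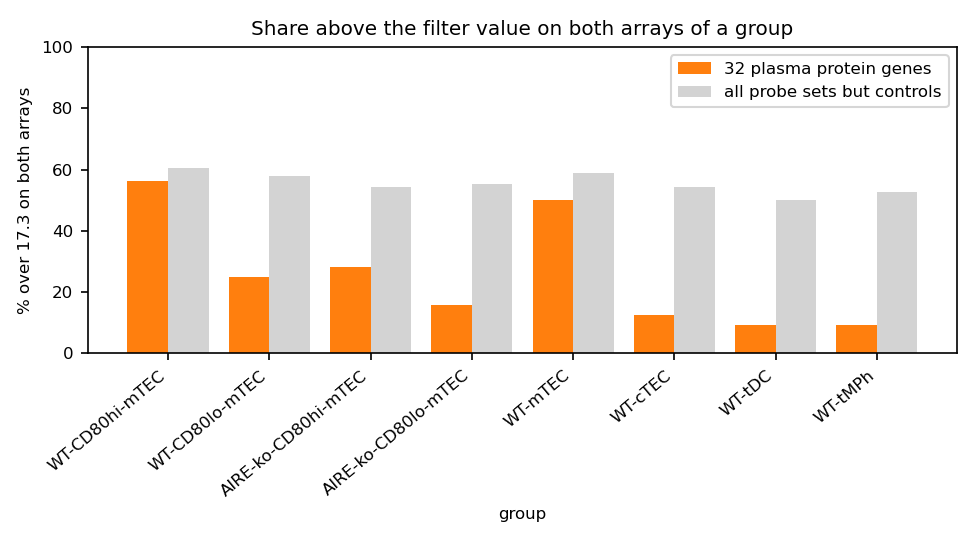
Share of probe sets with a signal over 17.3 on both arrays of a group (y axis, percent), for the 32 plasma protein genes (orange bars) and for all probe sets other than controls (gray bars), in the 8 groups (x axis). The orange bars reach 56.2% in WT CD80hi and 50% in unsorted WT mTEC and lie between 9.38% and 28.1% elsewhere, while the gray bars stay between 50% and 60.4%.

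The filter bears on these genes. Of the 23 tested, 7 (Alb, Orm1, Fga, Fgb, Itih1, Itih3 and Mbl2) exceeded 17.3 only in CD80hi mTEC of either genotype or in unsorted mTEC, so they were tested because they were bright there and had to be dimmer elsewhere. Fgb and Itih1 exceeded it in a single group, Fgb in WT CD80hi mTEC and Itih1 in knockout CD80hi mTEC. Outside CD80hi and unsorted mTEC, Afp, Ttr, Hpx, F2, F5 and F10 exceeded it on a single array, so they too needed those groups to pass. All differences are on the scale log2(signal + 4.8), given with their standard error (SE), which understates changes of dim genes. They come from a limma model over all 16 arrays, with p-values adjusted by Benjamini-Hochberg over 9319 probe sets. A gene is said to rise or fall where its adjusted p is under 0.05.

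**Figure D2:**
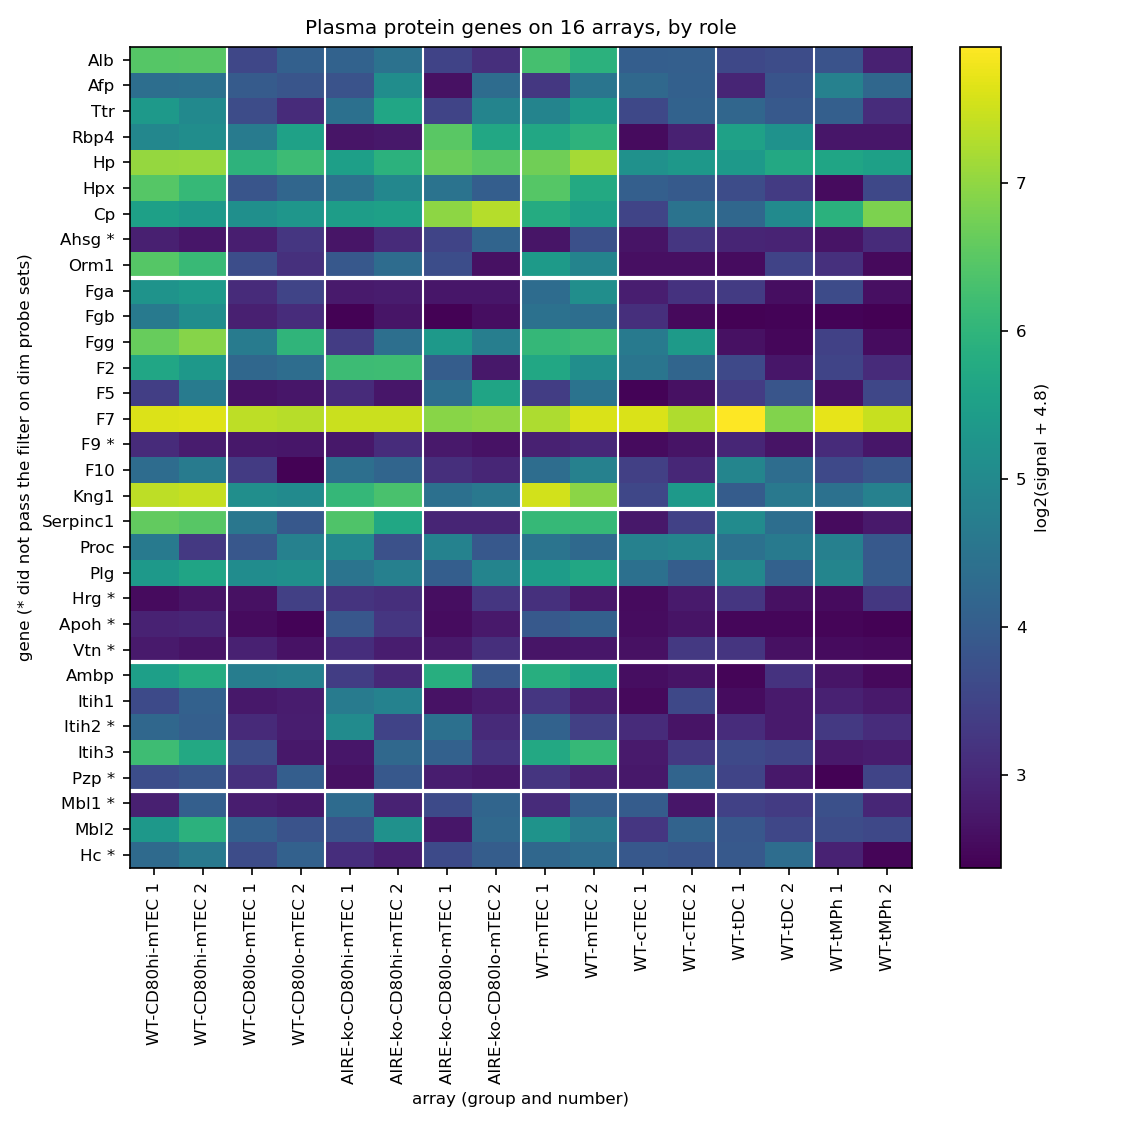
log2(signal + 4.8) of the 32 measured plasma protein genes (rows, by role: carriers, clotting, anticoagulant and fibrinolytic, protease inhibitors, innate immunity) on the 16 arrays (columns, by group and number). Yellow is bright and dark blue is dim, and a star marks the 9 genes under the filter. The WT CD80hi and unsorted WT mTEC columns are bright for more rows than the columns of the other groups, while F7 is bright on every array.

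The first comparison asked how the genes differ between CD80hi and CD80lo mTEC of wild-type mice. Of the 23 tested genes, 11 rose in CD80hi against CD80lo cells and none fell, against 7.98% of all probe sets that rose and 4.74% that fell. Among the 11, Alb, Orm1, Fga, Fgb and Itih3 passed the filter only through CD80hi or unsorted mTEC, so the filter bears on their rise. The median difference was 1.41 over the 23 genes and -0.04 over all probe sets. In 21 of the 23 both CD80hi arrays were above both CD80lo arrays, and in Rbp4 and Proc the groups overlapped. The share of all probe sets with arrays so placed was not counted.

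Among the carriers, 5 of 8 rose. Orm1 encodes the acute-phase protein orosomucoid, and its signals of 82.5 and 65.2 on the WT CD80hi arrays stood over 8.0 and 4.0 on the CD80lo arrays, a difference of 2.88 ± 0.46 (adjusted p = 0.000773). Alb encodes serum albumin, the most abundant plasma protein. It gave 82.6 and 84.8 against 7.0 and 12.1, a difference of 2.65 ± 0.37 (adjusted p = 0.000298). For Hpx, the heme scavenger hemopexin, the signals were 82.6 and 63.6 against 9.6 and 13.7 (2.24 ± 0.41, adjusted p = 0.00214). All 3 genes were near the filter value or under it in CD80lo cells. Ttr, the carrier of thyroid hormone, rose by 1.82 ± 0.53 (36.6 and 27.4 against 7.9 and 3.6, adjusted p = 0.0365). The hemoglobin binder Hp was bright in both fractions, at 127 and 128 against 57.3 and 67.6, and rose by 0.98 ± 0.30 (adjusted p = 0.0472). The 3 carriers that did not pass were the fetal albumin relative Afp (0.50 ± 0.59), the copper protein Cp (0.24 ± 0.41) and the retinol binder Rbp4 (-0.09 ± 0.39).

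Of the 8 clotting genes, 4 rose. Fga was at 32.8 and 36.4 in WT CD80hi and 3.5 and 6.6 in CD80lo cells, and Fgb at 20.5 and 29.5 against 2.5 and 3.7, differences of 2.02 ± 0.44 (adjusted p = 0.00724) and 1.90 ± 0.38 (adjusted p = 0.00348). The third chain of fibrinogen, Fgg, was present in both fractions, at 93.4 and 114.7 against 21.0 and 59.6, and its difference of 1.41 ± 0.50 did not pass (adjusted p = 0.0845). Kng1, the precursor of bradykinin, was at 158.7 and 167.3 against 30.0 and 27.6 and rose by 2.32 ± 0.48 (adjusted p = 0.00453). F10, the factor that cleaves prothrombin, rose by 1.64 ± 0.40 (15.4 and 20.8 against 5.3 and 0.5, adjusted p = 0.0141). Prothrombin itself, F2, gave 45.6 and 35.7 against 13.8 and 15.7 and did not pass (1.21 ± 0.45, adjusted p = 0.101), nor did F5 (1.35 ± 0.55) or F7 (0.28 ± 0.34).

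Serpinc1 encodes antithrombin, the main plasma inhibitor of thrombin. Its signals were 90.5 and 84.3 in WT CD80hi against 19.0 and 10.1 in CD80lo cells, a rise of 2.29 ± 0.39 (adjusted p = 0.00129). The anticoagulant protease gene Proc (-0.38 ± 0.54) and plasminogen, Plg (0.39 ± 0.42), did not pass. Among the protease inhibitors, Itih3, a heavy chain of the inter-alpha-trypsin inhibitor, rose by 2.76 ± 0.51 (68.4 and 48.3 against 7.8 and 1.9, adjusted p = 0.00214). Ambp, whose product is cleaved into the light chain of that inhibitor and a lipocalin, gave 40.6 and 50.7 against 21.6 and 22.9 and did not pass (0.89 ± 0.52), nor did Itih1 (1.08 ± 0.41). Mbl2, a lectin that starts complement activation, gave 35.7 and 56.6 against 12 and 9.0, short of the threshold (1.71 ± 0.55, adjusted p = 0.0566).

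Alb, Hpx, Orm1, Kng1, Serpinc1 and Itih3 kept their call in all 13 alternatives, and Fgb in the 12 that tested it, since a filter at a signal of 50 removed it. Where an array is left out, its group has 1 array, which is assumed to vary like the other groups. The count was 7 without WT CD80hi array 2 and 8 or 9 without any other array. Hp and Ttr lost their calls without any of the 4 arrays (adjusted p of 0.138 to 0.253 and 0.079 to 0.254), Fga without CD80hi array 2 or CD80lo array 1 (up to 0.0762) and F10 without either CD80hi array or CD80lo array 2 (up to 0.188).

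The second comparison asked which of the genes differ with the Aire genotype in CD80hi mTEC. In knockout against WT CD80hi cells 9 of the 23 genes fell and none rose, against 2.88% of all probe sets that fell and 0.172% that rose. Among the 9, Orm1, Fga, Fgb and Itih3 passed the filter only through WT CD80hi or unsorted WT mTEC, so the filter bears on their fall. The median difference was -1.15 over the 23 genes and -0.05 over all probe sets. In 16 of the 23 both knockout arrays were below both wild-type arrays, in 2 (F2 and Itih1) both were above, and in 5 the groups overlapped. Shares of all probe sets with arrays so placed were not counted. This comparison and the first use the same WT CD80hi arrays, so their values are set side by side only.

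All 3 fibrinogen chains fell together. Fgg was at 5.5 and 16.4 on the knockout arrays against 93.4 and 114.7 on the WT CD80hi arrays, and fell by 2.87 ± 0.50 (adjusted p = 0.00481). Fga was at 2.1 and 2.2 and fell by 2.50 ± 0.44 (adjusted p = 0.00565). Fgb was at 0.5 and 1.7 and fell by 2.33 ± 0.38 (adjusted p = 0.00321). The other clotting genes did not pass. F2 gave 67.6 and 68.7 in the knockout against 45.6 and 35.7, both arrays above the wild type (0.69 ± 0.45, adjusted p = 0.69). F10 gave 16.2 and 13.3, overlapping the wild type (-0.22 ± 0.40), and F7 was at -0.15 ± 0.34. Kng1 gave 62.0 and 75.3 against 158.7 and 167.3, apart from the wild type but short of the threshold (-1.20 ± 0.48, adjusted p = 0.306), and F5 was at -1.15 ± 0.55.

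Of the 8 carriers, 4 fell. Rbp4 was at 1.7 and 1.9 in knockout CD80hi cells against 26.1 and 29.5, and fell by 2.30 ± 0.39 (adjusted p = 0.00407). Alb was at 12.5 and 17.4 and fell by 2.17 ± 0.37 (adjusted p = 0.00477), and Orm1 was at 10.2 and 15.3 and fell by 2.17 ± 0.46 (adjusted p = 0.0171). On the knockout CD80lo arrays Alb was at 6.5 and 3.9 and Orm1 at 8.0 and 1.4, and neither passed between the knockout fractions (0.98 ± 0.37 and 0.96 ± 0.46). Hp was at 40.4 and 56.8 and fell by 1.33 ± 0.30 (adjusted p = 0.026). Hpx, at 17.4 and 25.8, had a difference of -1.57 ± 0.41 that did not pass (adjusted p = 0.0586). Cp (0.04 ± 0.41), Afp (0.03 ± 0.59) and Ttr (-0.16 ± 0.53) overlapped between the genotypes.

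The inhibitors split between members of a family. Ambp, at 5.6 and 3.3, fell by 2.45 ± 0.52 (adjusted p = 0.016), and Itih3, at 1.8 and 14.2, fell by 2.48 ± 0.51 (adjusted p = 0.0139). Itih1, the neighbour of Itih3 on chromosome 14, gave 20.9 and 23.5 in knockout CD80hi cells against 7.6 and 12.2 in the wild type, both arrays above it, with a difference of 0.89 ± 0.41 that did not pass (adjusted p = 0.426). Whether the differences of Itih1 and Itih3 differ from each other was not tested. Serpinc1 gave 78.7 and 46.6 against 90.5 and 84.3 (-0.49 ± 0.39, adjusted p = 0.788), Mbl2 -1.15 ± 0.55, Plg -0.85 ± 0.42 and Proc 0.39 ± 0.54.

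The count of 9 changed when an array was left out: it was 0 without WT CD80hi array 2, 3 without WT CD80hi array 1, 3 without knockout CD80hi array 1 and 8 without knockout CD80hi array 2, and 3 without array 1 of both knockout groups. Rbp4 and Fgb lost their calls in a single alternative each, without WT CD80hi array 2 (adjusted p = 0.0565 and 0.0552), and the highest adjusted p without an array was 0.0569 for Alb, 0.0664 for Fga, 0.0667 for Fgg, 0.15 for Ambp, 0.183 for Itih3, 0.195 for Orm1 and 0.205 for Hp. The differences themselves kept their sign in these fits, from -2.355 to -1.995 for Alb, -2.57 to -2.44 for Fga, -2.55 to -2.11 for Fgb, -2.38 to -2.23 for Rbp4 and -2.63 to -2.27 for Ambp, and over wider ranges for Fgg (-3.39 to -2.35) and Itih3 (-3.24 to -1.71). Orm1 ranged from -2.38 to -1.96 and Hp from -1.55 to -1.11.

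**Figure D3:**
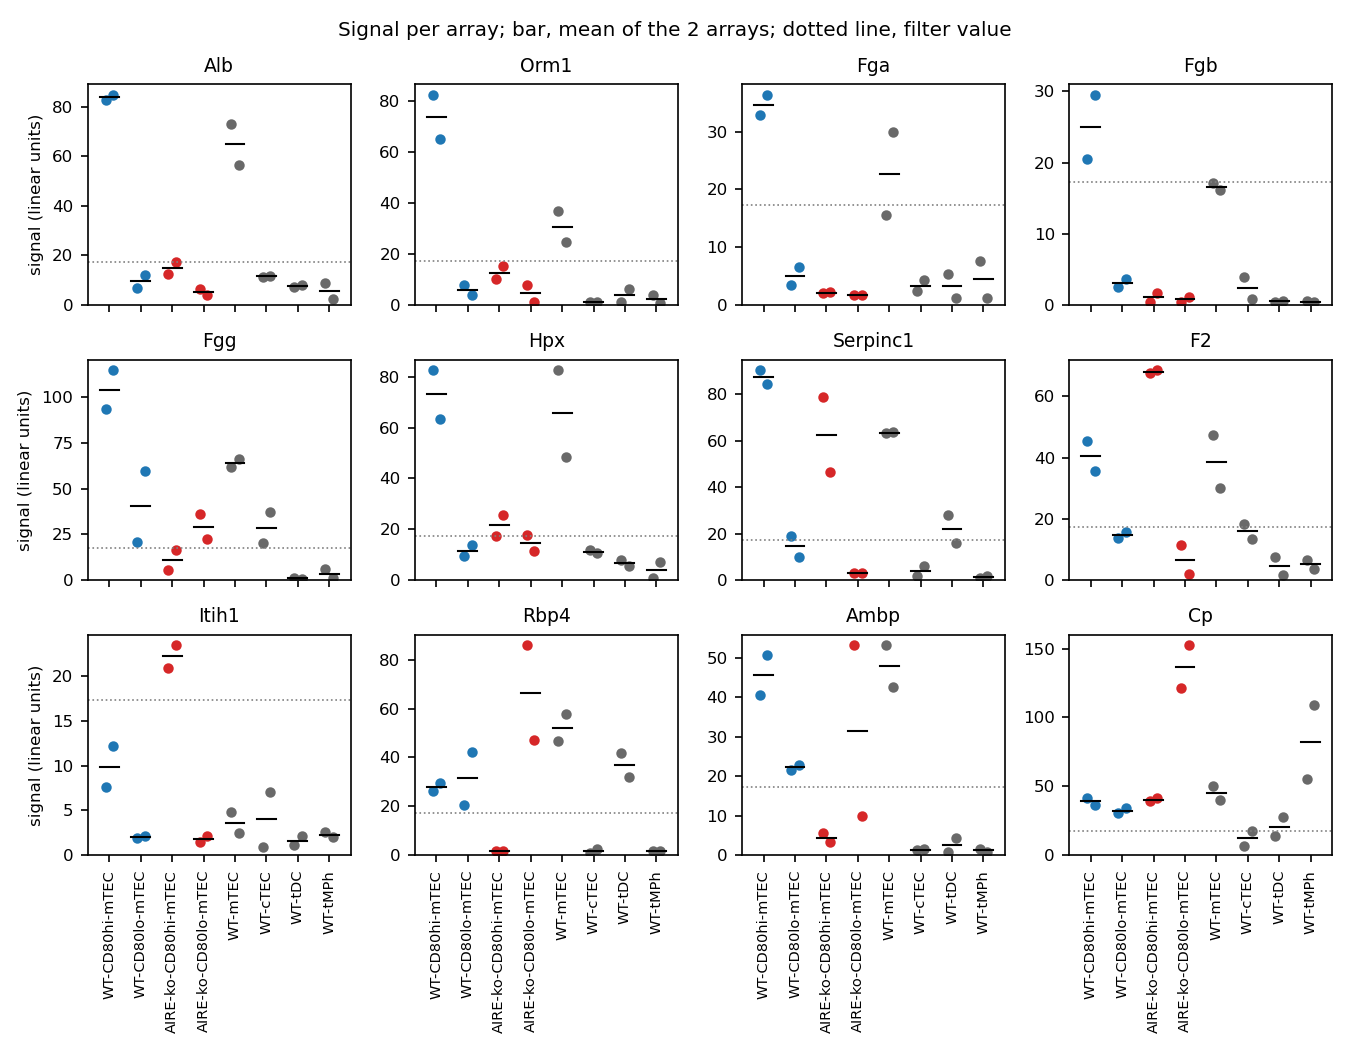
Signal on each array (points, linear units) of 12 plasma protein genes in the 8 groups, with bars at the mean of the 2 arrays and a dotted line at the filter value of 17.3. Blue is wild-type CD80-sorted, red knockout CD80-sorted and gray unfractionated wild-type cells. Alb, Orm1, Fga, Fgb, Fgg and Hpx are high in WT CD80hi mTEC and near or under the line in knockout CD80hi mTEC, Serpinc1, F2 and Itih1 are high in knockout CD80hi mTEC, and Rbp4, Ambp and Cp are highest in unsorted WT mTEC or knockout CD80lo mTEC.

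In CD80lo cells no gene passed between the genotypes by limma, against 0.279% of all probe sets that rose and 0.0429% that fell in the knockout. At an unadjusted p under 0.05, 3 genes were higher and 1 was lower, against 517 of 9319 probe sets in either direction. The median difference was -0.25 over the 23 genes and -0.05 over all probe sets. The largest differences belonged to F5, at 16.1 and 44.3 in the knockout against 1.5 and 1.8 (2.31 ± 0.55, adjusted p = 0.143), and Cp, at 121.1 and 152.8 against 30.6 and 34.1 (1.92 ± 0.41, adjusted p = 0.0767). Rbp4 gave 86.0 and 47.1 against 20.7 and 42.1 (0.99 ± 0.39, adjusted p = 0.69). Serpinc1 was at 2.9 on both knockout arrays against 19.0 and 10.1 (-1.29 ± 0.39, adjusted p = 0.384).

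Within the knockout, 4 genes rose and 4 fell in CD80hi against CD80lo cells, against 5.93% and 6.87% of all probe sets. The median difference was 0.44 over the 23 genes and -0.03 over all. Serpinc1 rose by 3.09 ± 0.39 (78.7 and 46.6 against 2.9 and 2.9, adjusted p = 0.000156) and F2 by 2.81 ± 0.45 (67.6 and 68.7 against 11.4 and 1.9, adjusted p = 0.000778). Itih1 rose by 2.02 ± 0.41 (20.9 and 23.5 against 1.5 and 2.2, adjusted p = 0.00436) and Kng1 by 1.69 ± 0.48 (62.0 and 75.3 against 16.6 and 19.2, adjusted p = 0.0305). Itih1 passed the filter only through the knockout CD80hi arrays, so the filter bears on its rise. Serpinc1 and Kng1 were the 2 genes that rose with CD80 in both genotypes, which is 18.2% of the 11 that rose in the wild type and 50% of the 4 that rose in the knockout. How many of all probe sets rose in both genotypes was not counted, so these shares have no baseline. No fibrinogen chain passed between the knockout fractions: Fga was at 0.07 ± 0.44, Fgb at 0.06 ± 0.38 and Fgg at -1.17 ± 0.50.

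The 4 genes that fell were Rbp4, F5, Ambp and Cp. Rbp4 gave 1.7 and 1.9 in knockout CD80hi against 86.0 and 47.1 in CD80lo cells and fell by 3.38 ± 0.39 (adjusted p = 6.23e-05). F5, at 3.5 and 1.8 against 16.1 and 44.3, fell by 2.11 ± 0.55 (adjusted p = 0.0206), and Cp, at 39.2 and 41.3 against 121.1 and 152.8, fell by 1.65 ± 0.41 (adjusted p = 0.0157). For Ambp the CD80lo arrays were far apart, at 53.3 and 9.9, against 5.6 and 3.3. It fell by 1.67 ± 0.52 (adjusted p = 0.0468), a call that was lost in 9 of 14 alternatives, among them without CD80lo array 1 (adjusted p = 0.454). The count of 8 was 4 without knockout CD80hi array 1 or 2 and 5 without knockout CD80lo array 2. Rbp4, F2 and Serpinc1 kept their calls in all 14 alternatives. Without some array Kng1 reached an adjusted p of 0.155, F5 of 0.165 and Cp of 0.0904, and Itih1 reached 0.0718 without array 1 of both knockout groups.

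The test of the difference between these effects, the knockout minus wild-type difference in CD80hi cells minus that in CD80lo cells, passed for 2 genes, both negative, against 1.3% of all probe sets that were negative and 0% that were positive. For Rbp4 it was -3.29 ± 0.55 (adjusted p = 0.00766). For F5 it was -3.47 ± 0.78 (adjusted p = 0.0456), a call that 11 of 17 alternatives ended, among them the smaller constant of 1 (adjusted p = 0.0741). The Rbp4 call was lost without WT CD80hi array 2 (adjusted p = 0.0525) and without array 1 of both knockout groups (adjusted p = 0.0909). Of the fibrinogen chains Fgg was at -2.58 ± 0.70, Fga at -1.94 ± 0.63 and Fgb at -1.85 ± 0.53, with adjusted p of 0.111, 0.228 and 0.145.

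**Figure D4:**
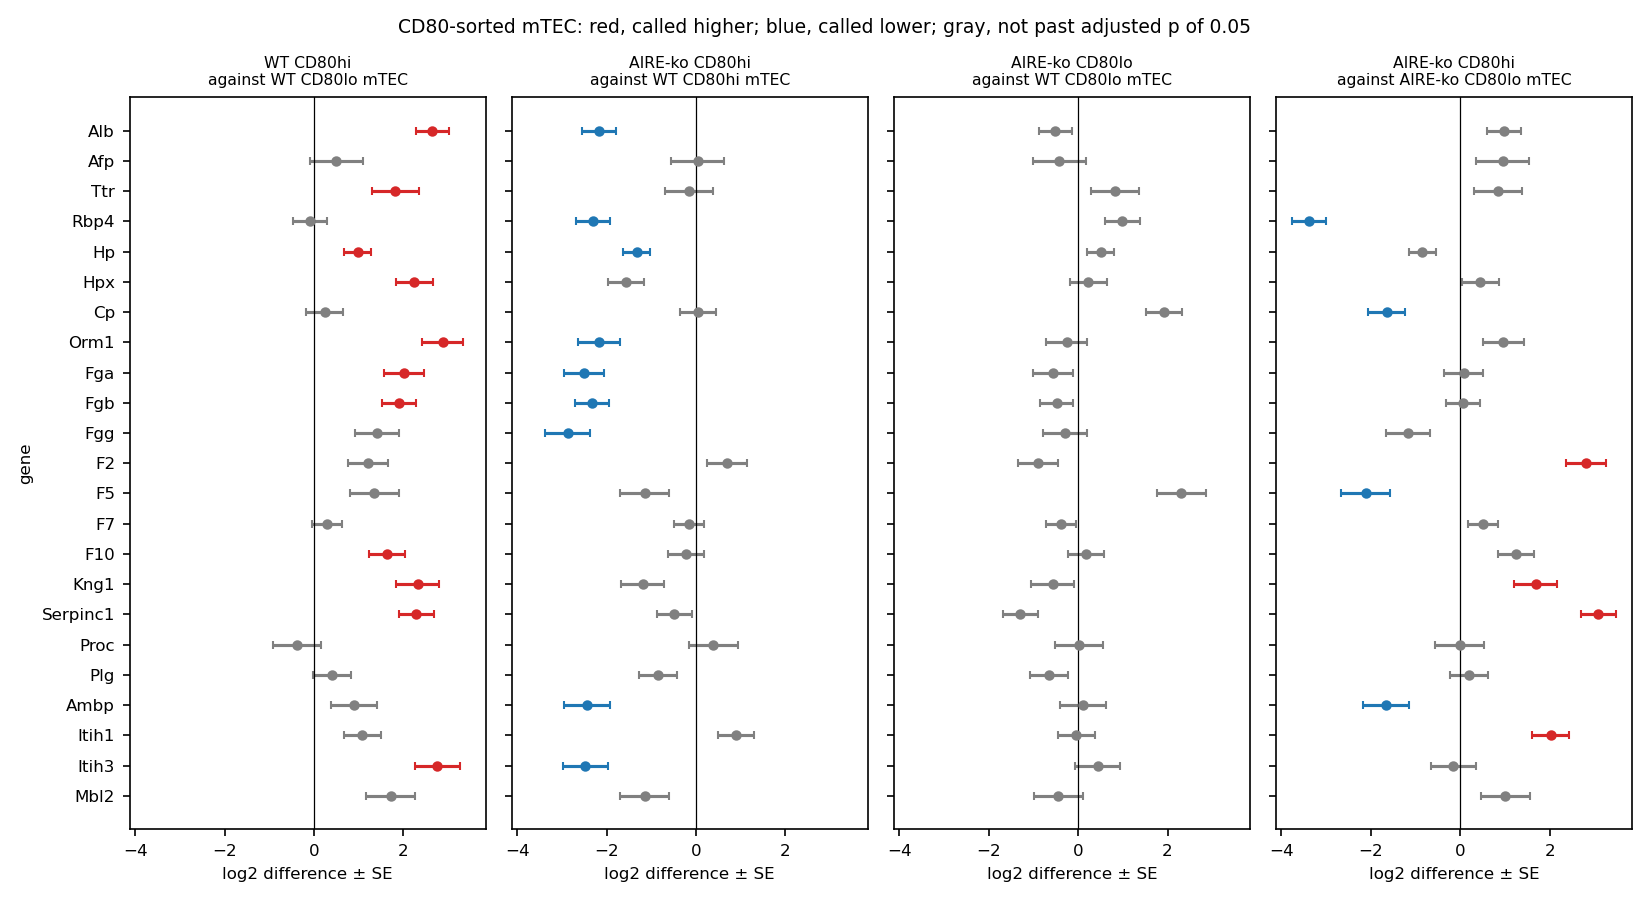
Differences in log2(signal + 4.8) with their SE (x axis) of the 23 tested plasma protein genes (rows) in the 4 comparisons of CD80-sorted mTEC, with 2 arrays a group. Red points passed as higher, blue as lower and gray did not pass. The left panel has 11 red points and the next has 9 blue points, the third has none of either, and the right panel has 4 red and 4 blue.

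The wild-type groups with no CD80 sort named were compared to ask how far this expression belongs to mTEC among cells of the thymic stroma. Of the 23 genes, 14 were higher in mTEC than in cTEC, 12 higher than in dendritic cells and 14 higher than in macrophages, and none was lower. The shares of all probe sets that rose were 11.1%, 16.8% and 14.6%, and the shares that fell 4.25%, 7.58% and 7.37%. The median differences of the 23 genes were 1.60, 1.39 and 1.61, against -0.03, 0.10 and 0.01 over all probe sets. These comparisons share the unsorted mTEC arrays. Alb, Orm1, Fga, Fgb and Itih3 are in each of these counts, and passed the filter only through CD80hi or unsorted mTEC. Against dendritic cells, 68.9% of the probe sets that passed were higher in mTEC, and 58.3% after quantile normalisation.

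Some genes were at the bottom of the scale in all 3 of the other cell types. Ambp gave 53.3 and 42.6 in mTEC and at most 4.3 on any array of cTEC, dendritic cells or macrophages, with differences of 3.08 ± 0.52, 2.89 ± 0.52 and 3.11 ± 0.52. Itih3, at 47.8 and 63.1, reached at most 7.3 elsewhere (2.85 ± 0.51, 2.34 ± 0.51 and 3.11 ± 0.51). Orm1 gave 37.0 and 24.6 and at most 6.5 elsewhere (2.52 ± 0.46, 2.10 ± 0.46 and 2.30 ± 0.46), and Alb 72.9 and 56.6 and at most 11.8 (2.07 ± 0.37, 2.48 ± 0.37 and 2.77 ± 0.37). Hpx, at 82.7 and 48.5, reached at most 11.8 (2.09 ± 0.41, 2.59 ± 0.41 and 3.03 ± 0.41). All of these differences passed, with a highest adjusted p of 0.0036.

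Others differed between the cell types that were compared with mTEC. Fgg gave 61.9 and 66.4 in mTEC, 20.3 and 37.0 in cTEC, 1.4 and 0.8 in dendritic cells and 6.1 and 1.1 in macrophages, so it passed against dendritic cells (3.55 ± 0.50, adjusted p = 0.000112) and macrophages (3.10 ± 0.50, adjusted p = 0.000379) and did not against cTEC (1.09 ± 0.50, adjusted p = 0.185). Prothrombin, F2, had the same pattern, with 47.3 and 30.0 in mTEC, 18.4 and 13.4 in cTEC and at most 7.4 in the others (1.05 ± 0.45, 2.25 ± 0.45 and 2.12 ± 0.45). Fga and Fgb passed against all 3 cell types, with differences of 1.61 to 1.77 for Fga and 1.60 to 2.01 for Fgb. The precursor Kng1 gave 180.3 and 118.2 in mTEC and 6.9 to 36.7 elsewhere (2.78 ± 0.48, 2.93 ± 0.48 and 2.61 ± 0.48).

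Rbp4 and Serpinc1 were also over the filter value on at least 1 dendritic cell array, as were Hp, Cp, F7, F10, Kng1, Proc and Plg. F10 gave 25.1 and 15.6 in dendritic cells against 15.7 and 23.4 in mTEC and did not pass between them. Rbp4 gave 42.0 and 31.9 in dendritic cells, close to 46.8 and 57.7 in mTEC (0.45 ± 0.39, adjusted p = 0.467), while cTEC were at 1.0 and 2.6 and macrophages at 1.8 and 1.8 (3.12 ± 0.39 and 3.11 ± 0.39 lower than mTEC). Serpinc1 gave 28.1 and 15.9 in dendritic cells, under 63.4 and 63.6 in mTEC (1.39 ± 0.39, adjusted p = 0.0179), and at most 6.2 in cTEC and macrophages (2.99 ± 0.39 and 3.44 ± 0.39). Cp gave 55.1 and 108.7 in macrophages, against 50 and 40.3 in mTEC (-0.73 ± 0.41, adjusted p = 0.252), 13.8 and 27.8 in dendritic cells and 6.7 and 17.6 in cTEC. Set against dendritic cells, macrophages were higher for Cp (1.74 ± 0.41, adjusted p = 0.0136) and lower for Rbp4 (-2.65 ± 0.39, adjusted p = 0.000464) and Serpinc1 (-2.05 ± 0.39, adjusted p = 0.00364), against 5.62% and 3.63% of all probe sets. That count of 3 was 1 without dendritic cell array 1, where Cp had an adjusted p of 0.141 and Serpinc1 of 0.0501, and Cp also lost its call without macrophage array 2 (0.122).

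The remaining calls were Hp in all 3 comparisons (1.69 ± 0.30, 1.42 ± 0.30 and 1.36 ± 0.30), Cp, F10 and Plg against cTEC (1.63 ± 0.41, 1.37 ± 0.40 and 1.36 ± 0.42) and Ttr against macrophages (1.56 ± 0.53, adjusted p = 0.0493). Among the genes called against cTEC, Alb, Rbp4, Hp, Hpx, Orm1, Kng1, Serpinc1, Ambp and Itih3 kept their calls in every alternative. F10 and Plg lost theirs without any of the 4 arrays (adjusted p up to 0.217 and 0.227), Cp without either mTEC array or cTEC array 1 (up to 0.163), Fga without mTEC array 2 or either cTEC array (up to 0.168) and Fgb without mTEC array 1 or cTEC array 2 (up to 0.103). Against dendritic cells, Serpinc1 lost its call without either mTEC array or dendritic cell array 2 (up to 0.142), Fga without mTEC array 2 or dendritic cell array 2 (up to 0.102) and Orm1 without dendritic cell array 1 (0.0542). Against macrophages, Ttr lost its call without either mTEC array or macrophage array 2 (up to 0.282), Fga without mTEC array 2 or macrophage array 2 (up to 0.177) and Hp without mTEC array 2 (0.0613).

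Arrays of the unsorted cells with the same number shared a range of brightness: their highest signals were 2518 to 3524 for number 1 and 4788 to 5630 for number 2. Within number 1 alone, 20, 21 and 19 of the 23 tested genes were higher in mTEC than in cTEC, dendritic cells and macrophages, and within number 2 alone 21, 22 and 22. Shares of all probe sets were not counted within a number. The median differences of the 23 genes were 1.495 and 1.79 against cTEC, 1.33 and 1.47 against dendritic cells and 1.55 and 2.05 against macrophages within numbers 1 and 2. With the number as a block in the fit, 15, 13 and 14 genes passed.

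**Figure D5:**
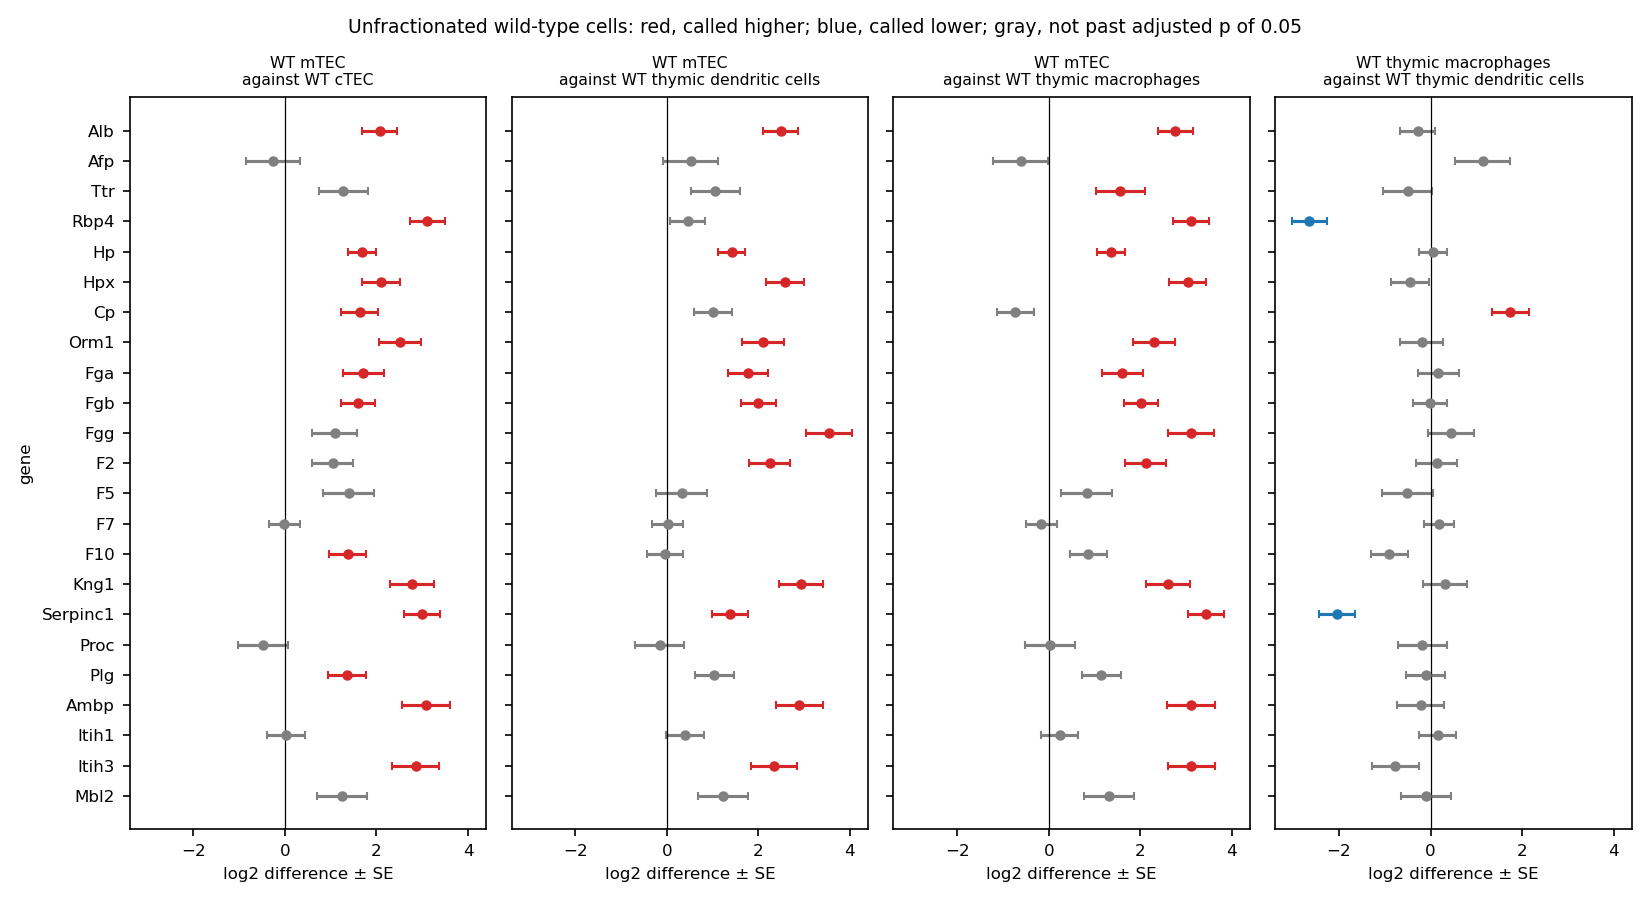
Differences in log2(signal + 4.8) with their SE (x axis) of the 23 tested plasma protein genes (rows) between unfractionated wild-type cells, with 2 arrays a group. Red points passed as higher, blue as lower and gray did not pass. The 3 left panels, mTEC against cTEC, dendritic cells and macrophages, hold 14, 12 and 14 red points and no blue, and the right panel, macrophages against dendritic cells, holds 1 red and 2 blue.

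Genomic neighbours among the listed genes did not always share a pattern. Fga, Fgb and Fgg, with no other protein-coding gene between them on chromosome 3, all fell in knockout CD80hi cells, yet Fgg alone was over the filter value on both cTEC and both CD80lo arrays of either genotype. Alb and Afp are adjacent on chromosome 5, and Afp, at 1.4 to 29.1 over all arrays, passed in no comparison while Alb rose and fell as described. F7 and F10 are adjacent on chromosome 8, and F10 rose with CD80 in the wild type while F7 did not pass. The other probe set of F7 had a difference of 1.08 that did not pass either, and whether F7 and F10 differ was not tested. Ambp and Orm1 lie on chromosome 4 with 2 protein-coding genes between them, and in WT CD80lo cells Ambp was over the filter value on both arrays (21.6 and 22.9) and Orm1 on neither (8.0 and 4.0). That contrast holds for the Orm1 probe set used, since the one listed for both Orm2 and Orm1 gave 48.5 and 22.4 there.

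F7 was bright on every array, with signals from 112.7 to 236.6, and passed in no comparison. Its other probe set gave 27.8 and 42.2 in WT CD80hi against 14.4 and 13.1 in CD80lo cells (1.08, adjusted p = 0.0802), against 0.28 for the probe set used, and neither passed. The other probe set of Hpx was dimmer (21.8 and 18.7 against 10.5 and 6.5) and passed neither with CD80 (0.93, adjusted p = 0.141) nor with the genotype in CD80hi cells (-1.28, adjusted p = 0.104). That of Proc had a difference of 1.19 with CD80 (adjusted p = 0.252), against -0.38 for the probe set used. The probe set listed for both Orm2 and Orm1, which cannot be assigned to either gene, gave 891.7 and 679.7 in WT CD80hi, 48.5 and 22.4 in WT CD80lo, 168.2 and 254.7 in knockout CD80hi and 18.2 and 25.8 in knockout CD80lo cells. It rose with CD80 by 4.36 (adjusted p = 5.14e-05) and had a difference of -1.89 between the genotypes in CD80hi cells (adjusted p = 0.0544). The names of the probe sets used for Proc and Plg carry suffixes that mark probes shared with other transcripts, so their signals may include those. Of the 9 genes under the filter, Apoh had the clearest pattern, with 10.5 and 12.1 in unsorted mTEC, 9.9 and 4.8 in knockout CD80hi mTEC and at most 2.9 on every other array. Hrg, F9 and Vtn reached at most 6.0, 3.7 and 5.0 on any array.

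The lists of related genes were chosen with earlier results of these data known, and their counts are descriptions. Hepatocyte enzymes and membrane proteins are made by the liver but not secreted. Of 24 tested, 7 (Tat, Hgd, Tdo2, Uox, Mat1a, Cyp1a2 and Fabp1) exceeded 17.3 only in CD80hi mTEC of either genotype or in unsorted mTEC. In WT CD80hi against CD80lo cells 12 rose and none fell (7.98% and 4.74% of all probe sets), with a median of 1.45, led by the histidine-degrading enzyme Hal (4.37 ± 0.42), the tryptophan-degrading enzyme Tdo2 (4.33 ± 0.46) and the fatty acid binder Fabp1 (4.46 ± 0.53). In knockout against WT CD80hi cells 5 fell and none rose (2.88% and 0.172% of all probe sets), with a median of -0.88, led by the urate oxidase Uox (-2.66 ± 0.40), the alcohol dehydrogenase Adh1 (-1.94 ± 0.36) and the arginase Arg1 (-1.62 ± 0.34). Within the knockout 6 rose with CD80 and 4 fell (5.93% and 6.87% of all probe sets), and Hal rose by 4.65 ± 0.42. Against cTEC, dendritic cells and macrophages 8, 14 and 10 were higher in mTEC (11.1%, 16.8% and 14.6% of all probe sets). Only 1 was lower, against dendritic cells (7.58% of all probe sets).

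Of 16 tested liver transcription factors, none passed in WT CD80hi against CD80lo cells (median 0.28) or in knockout against WT CD80hi cells (median -0.03). Over all probe sets 7.98% rose and 4.74% fell in the former, and 0.172% rose and 2.88% fell in the latter. Against cTEC, dendritic cells and macrophages, 1, 5 and 2 of the 16 were higher in mTEC (11.1%, 16.8% and 14.6% of all probe sets), and none was lower. The 1 against cTEC was the pioneer factor Foxa1, at 135.6 and 232.4 in unsorted mTEC against 0.6 and 13 in cTEC (4.22 ± 0.51, adjusted p = 5.64e-05). Hnf4a, named here after its values were seen, gave at most 4.9 on any array.

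Of 7 other tested coagulation and fibrinolysis genes, 1 fell and none rose with CD80 in the wild type (4.74% and 7.98% of all probe sets). It was the protein C cofactor Pros1, at 17.7 and 30.9 in CD80hi against 283.3 and 323.9 in CD80lo cells (-3.44 ± 0.50, adjusted p = 0.0004). In knockout against WT CD80hi cells 1 of the 7 fell and none rose (2.88% and 0.172% of all probe sets). It was the C1 inhibitor gene Serping1, at 59.2 and 55.2 against 218.2 and 189.4 (-1.75 ± 0.31, adjusted p = 0.00562). Of 17 receptors and partners of the plasma proteins, 2 rose and 3 fell with CD80 in the wild type (7.98% and 4.74% of all probe sets). Tissue factor, F3, the cell-bound starter of clotting, gave 42.0 and 59.5 in CD80hi against 330.0 and 560.7 in CD80lo cells (-2.99 ± 0.46), and the thrombin receptor thrombomodulin, Thbd, 1.4 and 1.6 against 32.2 and 34 (-2.59 ± 0.41). The protein C receptor Procr rose by 1.74 ± 0.35. None of the 17 passed between the genotypes in CD80hi cells, where 0.172% of all probe sets rose and 2.88% fell. In CD80lo cells 1 of the 17 was higher in the knockout, against 0.279% of all probe sets. It was the urokinase receptor Plaur, at 401.8 and 155.4 against 33.1 and 34.9 (2.72 ± 0.42, adjusted p = 0.0092).

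The labels were checked against marker genes. Aire, with 1829 and 1705 in WT CD80hi and 1589 and 1385 in knockout CD80hi cells, does not show the genotype, and the position of its probe set relative to the disrupted part is not known here, so it is no check of the knockout label. Of the mTEC markers, Aire, Fezf2, Epcam, Cldn3, Cldn4 and Spib were bright in mTEC, while the keratins Krt5 and Krt14 were near the bottom of the scale everywhere (at most 18.2 and 15.1), mTEC included. Tnfrsf11a was dim in unsorted mTEC (12.5 and 13.7), and Ivl reached at most 7.7 on any array. The cTEC arrays had the highest Enpep (999 and 790), Cxcl12, Ly75 and Ccl25. The other cTEC markers were highest elsewhere: Ctsl (4049) and Krt8 (5085) in CD80lo mTEC, and Cd83 (2137) in dendritic cells. The 9 thymocyte markers summed to 2913 to 5541 in cTEC, against 301 to 323 in unsorted mTEC. Of these 9, 8 were lower in mTEC, against 4.25% of all probe sets. Dendritic cells had the highest Itgax, Flt3, Xcr1 and Ccl17. Of the other dendritic cell markers, Cd74, H2-Aa and H2-Eb1 were highest in knockout CD80hi mTEC, and Sirpa in macrophages. Macrophages had the highest Adgre1 (507 and 1199), with thymocyte markers at 2386 to 4546. All other macrophage markers but Marco and Cd14 were also highest on a macrophage array. Marco was highest in WT CD80hi mTEC (33.3), against 2.0 and 2.9 in macrophages, and Cd14 in knockout CD80lo mTEC (890.8). Macrophage array 1 also gave 1834 for Ccl25, 1213 for Krt8 and 366 for Cxcl12, all cTEC markers, against 263, 172 and 87.6 on array 2. The part of such signals in the comparison of mTEC with macrophages was not tested.

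Markers of other cells moved with CD80. Over all probe sets, 7.98% were higher and 4.74% lower in WT CD80hi than in WT CD80lo cells. Summed fibroblast markers were at 804 to 908 on the WT CD80hi and 3088 to 3508 on the CD80lo arrays, with 7 of 12 lower in CD80hi cells. Endothelial markers were at 186 to 212 against 452 to 693, with 3 of 10 lower. Macrophage markers were at 3150 to 3336 against 1926 to 1946, with 4 of 14 higher, and erythroid markers at 274 to 284 against 72.0 to 75.5, with 2 of 5 higher. B cell markers were at 565 to 622 against 231 to 246, with 1 of 7 higher. Of 13 dendritic cell markers 2 were higher, and of 9 thymocyte markers none passed. In the knockout, fibroblast markers were at 1093 to 1153 in CD80hi and 3860 to 4538 in CD80lo cells (6 of 12 lower, against 6.87% of all probe sets). The endothelial sums of the 2 knockout CD80lo arrays were 170 and 645. Between the genotypes in CD80hi cells none of 12 fibroblast, 10 endothelial, 9 thymocyte, 5 erythroid, 13 dendritic cell or 7 B cell markers passed. There 2 of 14 macrophage markers fell, against 2.88% of all probe sets (summed signals of 2486 to 3285 in the knockout against 3150 to 3336). The platelet markers Pf4, Gp1bb and Gp5 were at most 13.4 on any array, and all 4 measured platelet markers summed to between 21.7 and 80.8. The part of these cells in the differences of the plasma protein genes was not tested.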

How the data were processed

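The deposited table of the series gave a signal intensity for 12488 probe sets on each array, on a linear scale. The software behind it is not given in the sources used here. Over all arrays, 2%-trimmed means of the deposited intensities lay between 100.057 and 100.073, a common mean.

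Of the probe sets, 66 controls and 3103 dim ones were left out and 9319 tested. Values were taken as log2(signal + 4.8), the constant being the 20th percentile. A linear model over the 8 groups was fitted with limma 3.58.1 in R 4.3.3 (lmFit, contrasts, eBayes with trend), with 8 residual degrees of freedom. It was tested on simulated data. Symbols came from the platform annotation, updated by gene identifier: 10833 probe sets had 1 symbol, 396 several and 1193 none. Replicate arrays correlated at 0.896 to 0.966.

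The genes and lists were chosen with earlier results of these data known. Genes that passed are given in full, up to 8 per direction, and genes of the related lists only if they passed, at most 3 per list and comparison by smallest p. Alternatives were quantile normalisation, other constants and filters, no trend, the array number as a block, the mean over probe sets, the compared groups alone and each array left out. Python 3.11.15, pandas 2.3.3 and matplotlib 3.10.9 made the summaries and plots.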

Additional observations from a re-analysis of the deposited data

Results flagged for a closer look

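The genotype difference in CD80hi cells minus that in CD80lo cells passed for Rbp4 (-3.29, adjusted p = 0.00766 by limma). Rbp4 was at 1.7 and 1.9 on the knockout CD80hi arrays and at 86.0 and 47.1 on the knockout CD80lo arrays, against 26.1 and 29.5, and 20.7 and 42.1, in the wild type. The same test passed for F5 (-3.47, adjusted p = 0.0456 by limma), with 3.5 and 1.8, and 16.1 and 44.3, in the knockout against 5.8 and 20.8, and 1.5 and 1.8, in the wild type.

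The probe set listed for both Orm2 and Orm1 belongs to no comparison of the 23 genes, since it has several symbols. Its mean signal on the WT CD80hi arrays was 785.7, and on the cTEC, dendritic cell and macrophage arrays it gave at most 24.3.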

How the results depend on the processing

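Counts are of the 23 genes that passed, in either direction. No result changed direction under an alternative. In WT CD80hi against CD80lo cells, 11 became 7 with a filter at a signal of 50, which leaves 13 of the genes, and 7 to 9 without 1 array. In knockout against WT CD80hi cells, 9 became 0 to 8 without 1 array and 3 without array 1 of both knockout groups. Between the genotypes in CD80lo cells, 0 became 1 with quantile normalisation, 1 with the constant at the 40th percentile and 2 with a replicate block (Cp and F5), and stayed 0 to 0 without 1 array. Between the knockout fractions, 8 became 4 with the compared groups alone, 4 without array 1 of both knockout groups and 4 to 6 without 1 array. For the difference of differences, 2 became 1 with a constant of 1, 8 with the constant at the 40th percentile, 1 with the filter at 50, 4 with the mean over probe sets, 1 with the compared groups alone, 0 without array 1 of both knockout groups and 0 to 2 without 1 array. Macrophages against dendritic cells went from 3 to 1 with the compared groups alone and 1 to 3 without 1 array. The cause of these changes was not tested. The counts of 14, 12 and 14 for mTEC against cTEC, dendritic cells and macrophages were 10 to 10, 10 to 11 and 11 to 15 without 1 array and stayed within 1.5 times under every alternative.

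The labels give the arrays shared numbers but no pairing. Deviations of same-numbered arrays correlated at 0.279 to 0.526 over the unsorted groups and 0.028 to 0.517 over the CD80-sorted ones. The 0.517 was between knockout CD80hi and knockout CD80lo cells, and the highest other value among CD80-sorted groups was 0.170. With the number as a replicate block the counts were 13, 9, 2, 10 and 3 for the CD80 comparisons. Without the filter, Apoh was higher in mTEC than in the 3 other cell types (adjusted p of 0.00183, 0.00054 and 0.000464) and Hc lower in knockout CD80hi cells (adjusted p = 0.0309). Quantile normalisation shifted the median over all tested probe sets by -0.23 (mTEC against dendritic cells), -0.12 (macrophages), -0.11 (cTEC), -0.11 (macrophages against dendritic cells) and 0.11 (knockout against WT CD80hi). With 2 arrays a group, and signals near 17.3 close to the dim end, changes of dim genes are measured least precisely.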
